A study of Mus musculus with 12 samples.

Results

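The guanylate-binding proteins were followed in RNA from mouse embryonic fibroblasts (MEFs), cultured mesenchymal cells of the embryo. The members were the 8 genes of the family named Gbp2, Gbp2b, Gbp3, Gbp4, Gbp5, Gbp6, Gbp7 and Gbp9. They were found through the RefSeq accession of each array probe, which gave 10 probes of 55681, and they are 8 of the 15445 named genes tested. The choice goes by gene symbol. Gbp10 and Gbp8, which also have probes, are not among the members: Gbp10 had a log2 fold of -0.06 (adjusted p = 0.877) in wild-type cells, and Gbp8 was well above background on no array. The 4 groups held 3 Agilent single-colour arrays each. The first was GADD34ΔC/ΔC cells (here ΔC) lipofected for 6 h with 2.5 µg/ml of high molecular weight poly(I:C), which imitates viral double-stranded RNA, and the second was untreated ΔC cells. The third was wild-type cells given poly(I:C) in the same way, and the fourth was untreated wild-type cells. GADD34, the product of Ppp1r15a, brings a phosphatase to the translation factor eIF2α. The labels describe 3 independent experiments. They give no mouse strain or number of embryos and list no cells given the lipid alone, so that the effects of poly(I:C) and of lipofection cannot be told apart. Nor do they say whether the 3 experiments of a genotype used separate preparations of cells. Genotype therefore cannot be told apart from strain or cell preparation, and errors of genotype differences may hold only the spread between experiments.

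Guanylate-binding proteins are large GTPases related to dynamins and atlastins. They are among the transcripts that interferons induce most strongly: signalling from the interferon receptors activates transcription factors that bind interferon-stimulated response elements (ISRE) and gamma-activated sites (GAS) in the promoters of their target genes. Double-stranded RNA sensed in the cytosol leads to interferon production, so that these genes are typical secondary targets of poly(I:C). The proteins assemble on vacuoles and membranes of intracellular bacteria and parasites, can open them, and can bring microbial products to inflammasomes. Some members carry a lipid (prenyl) anchor at the carboxyl terminus.

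In the RefSeq annotation (GRCm38.p6) the family lies in 2 groups of neighbouring genes. On chromosome 3 the order is Gbp5, Gbp7, Gbp3, Gbp2b and Gbp2, with a long noncoding RNA gene, Gm40158, between Gbp3 and Gbp2b. On chromosome 5 it is Gbp9, Gbp4 and Gbp6, with Gbp10 next to Gbp6 and with a pseudogene, Gm9640, and a long noncoding RNA gene, Gm31785, between Gbp4 and Gbp10. RefSeq promoter windows, each 250 bases before to 50 bases after a start, were matched for 5 of the 8 genes, the whole chromosome 3 group. They were searched on both strands for the letters of the ISRE core (GAAA, any 2 bases, GAAA) and of a GAS (TTCNNNGAA). The stretches around the ISRE core are shown because they are the regulatory letters that these neighbours share. They are the reference sequence and were not read from the cells. Capitals mark the matches, which lie on the minus strand and read TTTC, 2 bases, TTTC in the plus-strand sequence printed 5′ to 3′.
Gbp5 (chr3:142496749-142496798): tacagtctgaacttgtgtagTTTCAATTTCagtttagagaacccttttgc
Gbp7 (chr3:142530263-142530312): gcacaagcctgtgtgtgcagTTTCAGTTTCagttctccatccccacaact
Gbp3 (chr3:142559979-142560034): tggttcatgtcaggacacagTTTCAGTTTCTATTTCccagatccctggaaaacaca
Gbp2b (chr3:142594690-142594739): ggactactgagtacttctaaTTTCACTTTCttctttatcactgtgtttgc
Gbp2 (chr3:142620584-142620633): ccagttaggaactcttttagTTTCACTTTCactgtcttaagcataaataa

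All 5 matched genes held the ISRE core letters, against 3.99% of the 27025 genes in the promoter table. Gbp2 and Gbp2b have the same 10 letters, TTTCACTTTC, and Gbp7 and Gbp3 share TTTCAGTTTC. The distance to the start differs: the match begins 59 bases before the start in Gbp2, 53 in Gbp7, 45 in Gbp3, 137 in Gbp2b and 165 in Gbp5. In Gbp3 a second match, TTTCTATTTC, overlaps the first, and its other RefSeq start has no match in its window. The GAS letters were found in Gbp5 and Gbp7, in 2 places each, against 9.55% of all genes in the table, and none of them overlapped an ISRE match. A match is a run of letters and was not tested as a binding site.

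**Figure D1:**
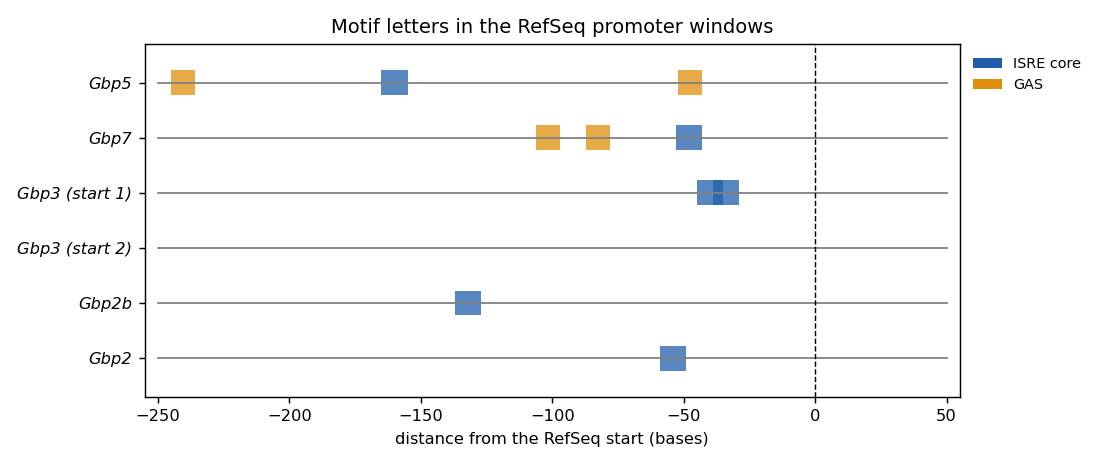
Matches to the ISRE core (blue) and GAS (orange) letters in the RefSeq promoter windows of the chromosome 3 genes; the x axis is the distance in bases from the RefSeq start and each line is 1 window. The ISRE match begins between 45 and 165 bases before the start, the GAS letters appear in Gbp5 and Gbp7, and the second window of Gbp3 holds neither.

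Levels are log2 of the processed intensity minus the 75th percentile of the array, so that 0 is the 75th percentile and 1 unit is a doubling, and different probes are not compared in level. A change was called at a limma adjusted p under 0.05 over all 15445 genes, and errors of changes are standard errors from that fit. Where no array of a group put a probe well above background, the fold is given as a bound ("at least") that holds for this processing only. The transcript of Ppp1r15a itself lay between -8.14 and -4.12 in poly(I:C)-treated ΔC cells, where it was well above background on 1 of 3 arrays, and between -8.30 and -5.75 in untreated ΔC cells (0 of 3), against 5.79 to 5.83 in treated and 2.62 to 3.37 in untreated wild-type cells. The position of that probe relative to the deletion is not given in the sources used here. Arrays were 60.4% to 67.3% well above background.

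The third wild-type poly(I:C) array lay below the mean of the other two for each of the 8 genes, by 0.97 (Gbp9) to 3.14 (Gbp4) log2 units, while over all genes the median of that same difference was 0.08. The 4 arrays numbered 3 also stood together on the third principal component of all arrays, so counts are given with and without them. Arrays of different groups shared slides and scan days in an unbalanced way, and values with these as blocks are given beside each gene where a call was lost. Fibroblast markers were present: Vim averaged 7.76 and 7.68 in treated and untreated ΔC cells and 8.30 and 8.31 in treated and untreated wild-type cells. The linear levels summed over 14 fibroblast markers, of which 10 were well above background on every array and Lum on none, were lower in ΔC cells (398.8 to 731.7 treated and 401.3 to 740.6 untreated, against 872.1 to 1015 and 1069 to 1232 in wild type). The median log2 difference over the 13 of them tested was -0.30 with poly(I:C) (3 called lower) and -0.06 untreated (4 called lower), with 0 called higher in either. The epithelial markers Epcam and Cdh1 were well above background on 6 of 6 ΔC arrays and on 0 of 6 wild-type arrays. Of the other epithelial markers, Krt8 went the other way, averaging -5.23 treated and -5.74 untreated in ΔC cells and -3.91 treated and -3.82 untreated in wild type, and Krt18 overlapped between genotypes. Of 9 leukocyte markers measured, 6 were well above background on all 12 arrays, among them Ptprc and Adgre1, and Lyz2 and Spi1 on none, and the sum was 12.8 to 14.5 in treated and 11.7 to 15.2 in untreated ΔC cells, against 16.6 to 18.5 and 23.4 to 26.8 in wild type. Of 4 endothelial markers, Kdr and Pecam1 were well above background on all 12 arrays and Cdh5 and Tek on none. The part of these marker differences in the results below was not tested, and in bulk RNA fewer responding cells and less RNA per cell cannot be told apart.

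In wild-type cells 7 of the 8 genes rose after poly(I:C), against 5.24% of all genes tested that were called higher. The median log2 change of the 8 was 6.70, against -0.14 over all genes. Gbp9 was the exception, with a change of 0.74 ± 0.23 (adjusted p = 0.0813). In ΔC cells 5 genes rose, Gbp2, Gbp3, Gbp5, Gbp6 and Gbp7, against 1.82% of all genes, with a median over the 8 of 2.77 against -0.05. Gbp2b, Gbp4 and Gbp9 did not pass the test there. Between the treated genotypes, 6 genes were lower in ΔC than in wild-type cells, against 9.04% of all genes, with a median of -1.89 against 0.01. Gbp3 and Gbp5 did not pass. In untreated cells Gbp7 was higher and Gbp2b lower in ΔC cells, against 10.9% and 10.2% of all genes called in those directions, and the groups did not overlap for 2 genes that were higher (Gbp3 and Gbp7, 17.6% of all genes) and for 2 that were lower (Gbp2b and Gbp9, 19.6%). All 8 genes passed the filter on dim probes, but Gbp4 passed it only through the wild-type poly(I:C) arrays, and Gbp2b only through wild-type arrays, so that the filter set the direction of the wild-type rise of Gbp4 and of the genotype differences of both. The comparisons share arrays: the treated wild-type arrays enter both the wild-type response and the treated genotype comparison.

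**Figure D2:**
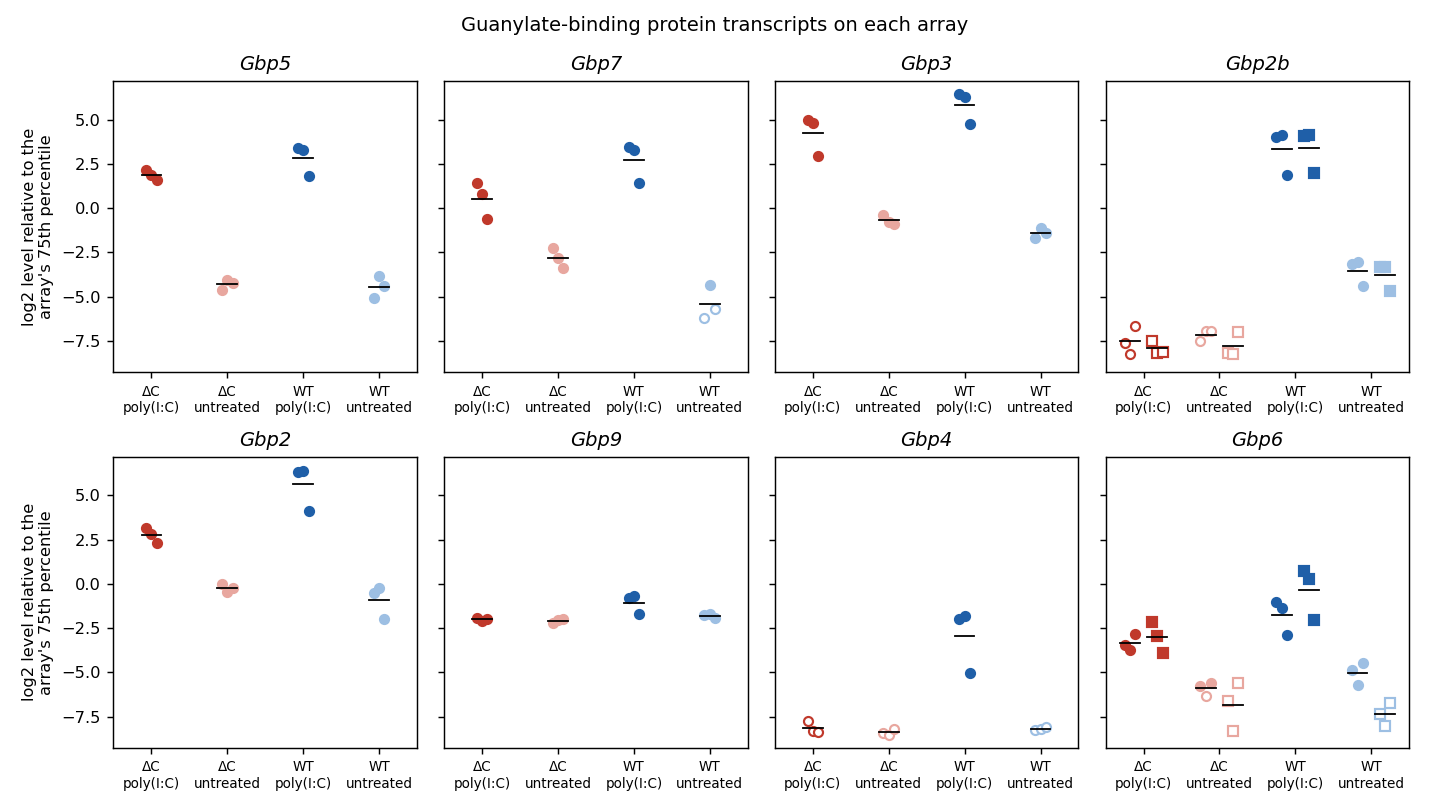
Log2 level relative to the 75th percentile of the array (y axis) on each of the 12 arrays, 1 panel a gene, in ΔC cells (red) and wild-type cells (blue) with poly(I:C) (dark) and untreated (pale). Open symbols are spots not well above background, squares are the second probe of Gbp2b and Gbp6, and bars are means of 3 arrays. Gbp2b is open in all 6 ΔC arrays and reaches 4.12 in treated wild-type cells, whereas Gbp5 reaches 2.14 in treated ΔC cells and 3.43 in treated wild-type cells.

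Gbp2 is a prenylated member that collects on vacuoles of the parasite Toxoplasma in mouse cells. Its log2 level was 3.19, 2.80 and 2.32 on the 3 treated ΔC arrays and -0.01, -0.45 and -0.25 on the untreated ΔC arrays. In wild type it was 6.35, 6.41 and 4.10 with poly(I:C) and -0.53, -0.21 and -1.96 without. The untreated groups overlapped, and all treated wild-type arrays lay above all treated ΔC arrays. Gbp2 rose 8.03-fold in ΔC cells (log2 3.00 ± 0.62, adjusted p = 0.0366) and 92.0-fold in wild-type cells (6.52 ± 0.62, 0.000169). After poly(I:C) it was 7.21-fold lower in ΔC than in wild-type cells (-2.85 ± 0.62, 0.00958), and untreated cells differed by 0.67 (0.47). The ΔC rise lost its call when any of the 6 ΔC arrays or the first untreated wild-type array was left out, at 2.80 to 3.23, and with slide (3.06, adjusted p = 0.264) or day of scanning (3.17, 0.085) blocked. The treated genotype difference lost its call with slide as a block (-2.79, 0.0834).

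Gbp2b, formerly called Gbp1 in the mouse, is the neighbour of Gbp2 on chromosome 3. On its brighter probe the log2 level was -7.60, -8.26 and -6.64 in treated and -7.52, -6.96 and -6.92 in untreated ΔC cells, all not well above background. In wild-type cells it was 4.05, 4.12 and 1.86 with poly(I:C) and -3.15, -3.04 and -4.40 without, all well above background. The gene was thus measured in each wild-type array, untreated ones included, and in none of the ΔC arrays. It rose 117-fold in wild-type cells (6.88 ± 0.63, adjusted p = 0.000143), while both ΔC groups were below background, which leaves no fold there. In treated cells it was at least 699.9-fold lower in ΔC than in wild-type cells (adjusted p = 4.78e-06), and without it at least 6.02-fold lower (0.00327). The second probe gave at least 721.7-fold (2.72e-06 over 35200 probes) and at least 5.03-fold (0.0018). With another background correction (normexp) the treated difference was -6.89 on the log2 scale (adjusted p = 2.02e-06), smaller than the bound, and the untreated difference was -1.22 (0.0781). The untreated difference was -3.16 with slide as a block (0.0835).

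Gbp3, also found on Toxoplasma vacuoles in mouse cells, had log2 levels of 4.97, 4.81 and 2.98 in treated and -0.38, -0.78 and -0.89 in untreated ΔC cells. Wild-type cells had 6.44, 6.31 and 4.76 with poly(I:C) and -1.69, -1.10 and -1.42 without. The treated groups overlapped, and the untreated ΔC arrays lay above the untreated wild-type arrays. Gbp3 rose 30.6-fold in ΔC cells (4.94 ± 0.55, adjusted p = 0.000935) and 150.85-fold in wild-type cells (7.24 ± 0.55, 4.5e-05). The genotypes differed by -1.58 with poly(I:C) (adjusted p = 0.0666) and by 0.72 without (0.381). Blocking on the replicate number brought the treated difference past the threshold (-1.58, adjusted p = 0.0255), as did leaving out the third wild-type poly(I:C) array (-2.12, 0.0164) and normexp (-1.61, 0.0402).

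Gbp5, a prenylated member tied to inflammasome activation, had log2 levels of 2.14, 1.86 and 1.58 in treated and -4.62, -4.08 and -4.21 in untreated ΔC cells. In wild-type cells it had 3.43, 3.30 and 1.83 with poly(I:C) and -5.10, -3.84 and -4.42 without. The groups of the 2 genotypes overlapped in both conditions, and treated and untreated arrays lay more than 5 log2 units apart in each genotype. The rise was 71.6-fold in ΔC cells (6.16 ± 0.43, adjusted p = 6.5e-05) and 158-fold in wild-type cells (7.30 ± 0.43, 8.76e-06). The genotypes differed by -0.99 with poly(I:C) (0.13) and by 0.15 without (0.825). Without the third wild-type poly(I:C) array the treated difference was -1.50 and passed (0.0114). With normexp the rises were 4.87 in ΔC cells and 5.70 in wild-type cells on the log2 scale, both called.

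Gbp7, which in mouse phagocytes helps to assemble the NADPH oxidase, had log2 levels of 1.44, 0.80 and -0.63 in treated and -2.26, -2.79 and -3.39 in untreated ΔC cells. In wild-type cells it had 3.46, 3.32 and 1.42 with poly(I:C) and -6.19, -4.34 and -5.70 without, of which only the -4.34 was well above background. Treated groups overlapped at 1 array each, and untreated ΔC arrays lay above all untreated wild-type arrays. It rose 10.2-fold in ΔC cells (3.35 ± 0.70, adjusted p = 0.0391) and 283-fold in wild-type cells (8.14 ± 0.70, 9.95e-05), a size that rests partly on background readings and was 5.62 on the log2 scale with normexp. Untreated ΔC cells had 6.05-fold more than untreated wild-type cells (2.60 ± 0.70, adjusted p = 0.0252), whereas treated ΔC cells had 4.58-fold less than treated wild-type cells (-2.20 ± 0.70, 0.0483). Gbp7 was the member with called differences of opposite sign in the 2 conditions. The calls were narrow: leaving out 1 array at a time took away the untreated call for 4 of the arrays (at 2.21 to 2.59; untreated wild-type 1 and 3, untreated ΔC 1 and 2). It took away the treated call for 9 arrays (at -1.61 to -2.33), all but treated wild-type 3, untreated wild-type 2 and treated ΔC 1. It took away the call on the ΔC rise for 9 as well (at 2.90 to 3.63), all but treated wild-type 3, untreated wild-type 2 and treated ΔC 3. With normexp the untreated difference was 0.78 (0.293), and the treated difference, blocked on scan day, was -1.68 (0.0626).

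On chromosome 5, Gbp4 is known in the mouse as a restraint on Irf7. It was not well above background on any ΔC array (-8.51 to -7.74) or untreated wild-type array (-8.26 to -8.06). It reached -1.97, -1.81 and -5.03 on the treated wild-type arrays, the only group in which it was measured. The wild-type rise was at least 8.10-fold (adjusted p = 0.00125), and treated ΔC cells had at least 9.00-fold less than treated wild-type cells (0.000669). With normexp these were 1.59 (0.0228) and -1.72 (0.00619) on the log2 scale, smaller than the bounds, which are 3.02 and -3.17 on that scale. Leaving out the third treated wild-type array raised the fitted wild-type rise to 6.29, against 5.24 with it.

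Gbp6, which in mouse cells also reaches parasite vacuoles, was measured by 2 probes. On the brighter one the log2 level was -3.45, -3.74 and -2.85 in treated and -5.74, -6.35 and -5.58 in untreated ΔC cells, the -6.35 being not well above background. Wild-type cells had -1.03, -1.37 and -2.88 with poly(I:C) and -4.85, -5.72 and -4.49 without. Treated and untreated arrays did not overlap in either genotype, while the genotypes overlapped in both conditions. Gbp6 rose 5.83-fold in ΔC cells (2.54 ± 0.48, adjusted p = 0.0263) and 9.56-fold in wild-type cells (3.26 ± 0.48, 0.00293), and was 3.00-fold lower in treated ΔC than in treated wild-type cells (-1.58 ± 0.48, 0.0422). The second probe read -2.16, -2.95 and -3.93 in treated ΔC cells and 0.73, 0.30 and -2.01 in treated wild-type cells, and was not well above background on any untreated array. By that probe the ΔC rise was at least 7.94-fold (adjusted p = 0.0522 over 35200 probes) and the wild-type rise at least 49.4-fold (0.00077), and treated ΔC cells differed from treated wild-type cells by -2.69 (0.0535). The 2 probes thus gave different sizes, and which transcripts each one reads was not tested.
Leaving out 1 array took away the call on the ΔC rise of the brighter probe for 5 arrays (at 2.30 to 2.74; ΔC untreated 1 and 2, and all 3 treated ΔC arrays). It took away the treated genotype call for 7 arrays (at -1.22 to -1.58; treated wild-type 1 and 2, treated ΔC 1 and 2, untreated ΔC 1 and 2, untreated wild-type 1). The ΔC rise was not called with slide (2.01, adjusted p = 0.378) or day of scanning (1.94, 0.324) blocked or with normexp (1.05, 0.177), and the treated genotype difference was not called with slide as a block (-2.12, 0.0852). The wild-type rise was 1.69 with normexp (0.00705).

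Gbp9, another member found on parasite vacuoles in mouse cells, had the smallest wild-type change of the 8. Its log2 level was -1.90, -2.12 and -1.96 in treated and -2.22, -2.04 and -2.01 in untreated ΔC cells, against -0.79, -0.68 and -1.70 in treated and -1.77, -1.69 and -1.94 in untreated wild-type cells. The change was 0.10 ± 0.23 in ΔC cells (adjusted p = 0.911). In wild-type cells it was 0.74, and 1.06 without the third treated array, at which it passed (0.000758). Treated ΔC cells had 1.91-fold less than treated wild-type cells (-0.93 ± 0.23, adjusted p = 0.0176), with no overlap. That call was lost without treated wild-type array 1 (-0.80) or 2 (-0.75) or treated ΔC array 2 (-0.87), and with slide (-0.93, adjusted p = 0.134) or day of scanning (-0.98, 0.0524) blocked. The neighbouring Gbp10, which is not a member here, stayed between -1.73 and -0.83 on all 12 arrays with no call.

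**Figure D3:**
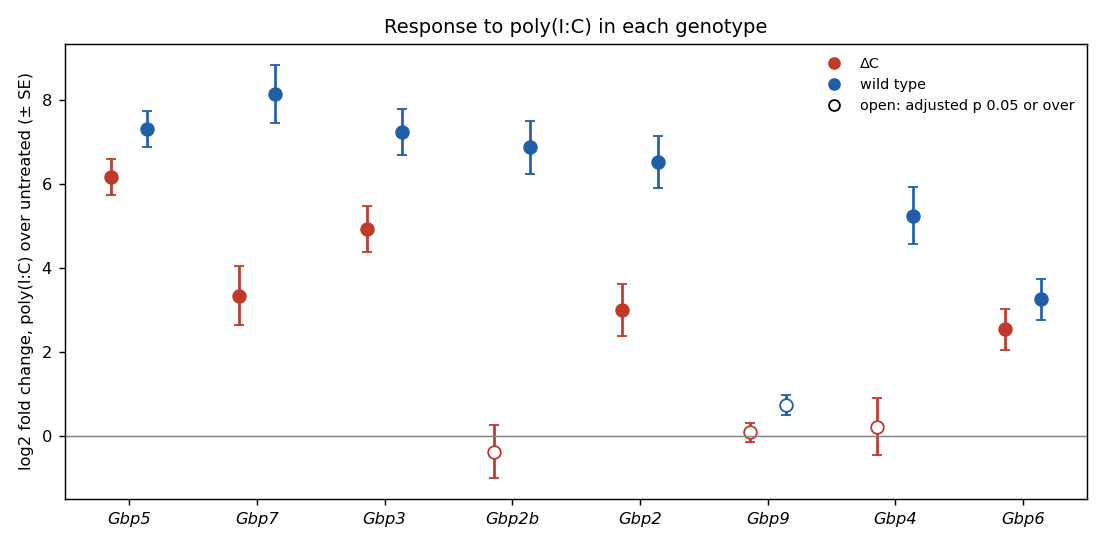
Log2 fold change after poly(I:C) (y axis, poly(I:C) over untreated, bars ± SE of the fit) for each gene in ΔC cells (red) and wild-type cells (blue), with open symbols where the adjusted p was 0.05 or over. Wild-type values run from 0.74 (Gbp9) to 8.14 (Gbp7) and ΔC values from -0.36 (Gbp2b) to 6.16 (Gbp5). Values for Gbp2b in ΔC cells, for Gbp4 and for Gbp7 in wild-type cells include background readings.

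The ΔC response made up different shares of the wild-type response from gene to gene. As a share of the wild-type log2 change, the ΔC change was 84.4% for Gbp5, 78.1% for Gbp6, 68.2% for Gbp3, 46.1% for Gbp2, 41.1% for Gbp7, where the wild-type change rests partly on background readings, and 13.2% for Gbp9. Gbp2b and Gbp4 had no measured ΔC level and so no share, and the share of Gbp6 is that of its brighter probe. The test of the difference between the 2 responses was negative for all 8 genes, with a median of -2.91 against 0.07 over all genes, and 5 genes had an unadjusted p under 0.05. Gbp4 passed the filter on dim probes only through the treated wild-type arrays, so the filter set its sign here. The sizes of Gbp2b and Gbp4 include background readings. With no measured level in ΔC cells, both values mostly restate the wild-type rise with its sign turned. After adjustment 1 gene passed, Gbp2b (-7.24 ± 0.89, adjusted p = 0.0483), against 0.0129% of all genes called lower. That call was lost without any single array other than treated wild-type 3 and treated ΔC 3 (at -7.48 to -6.80), and with slide (-7.49, 0.302) or day of scanning (-7.49, 0.241) blocked. The other 7 had adjusted p of 0.236 to 0.987, among them Gbp4 (-5.02 ± 0.96, 0.236), Gbp7 (-4.79 ± 0.98, 0.245), Gbp2 (-3.52 ± 0.87, 0.369) and Gbp3 (-2.30 ± 0.78, 0.65). The smallest sizes on the probes standing for the genes were those of Gbp5 (-1.14 ± 0.61), Gbp6 (-0.71 ± 0.69) and Gbp9 (-0.64 ± 0.33), for which the test missed the threshold without showing that the responses are alike. The second Gbp6 probe gave -3.21 (unadjusted p = 0.0197, adjusted p = 0.755), a size that includes background readings. Without the third treated wild-type array 5 genes passed, against 1.29% of all genes called lower: Gbp2 (-4.28), Gbp2b, Gbp4 (-6.07), Gbp7 (-5.45) and Gbp9 (-0.97). That array had read low for all 8 genes, so leaving it out enlarges their differences by construction.

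**Figure D4:**
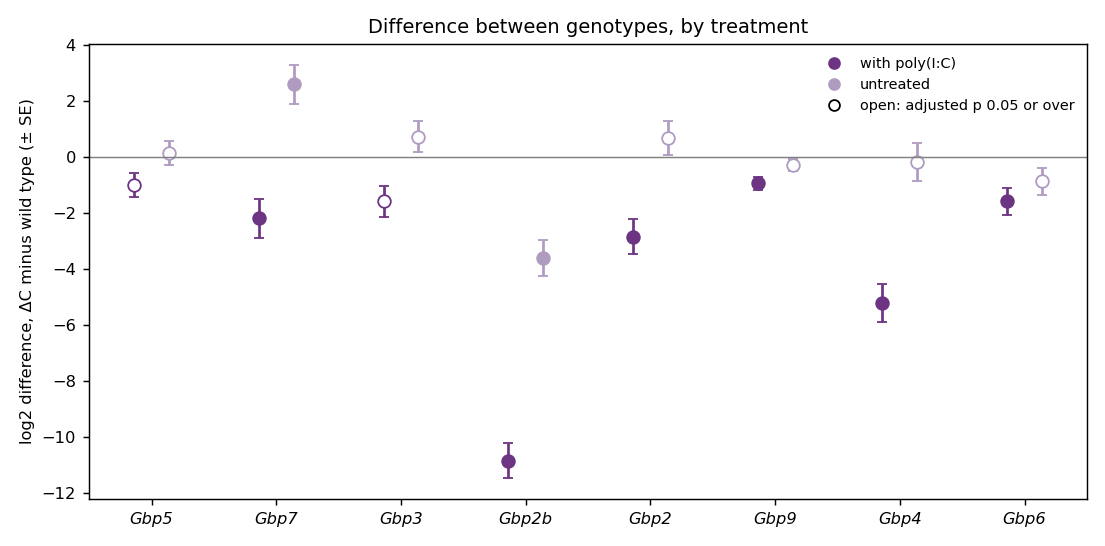
Log2 difference, ΔC minus wild type (y axis, bars ± SE of the fit), with poly(I:C) (dark) and untreated (pale), with open symbols where the adjusted p was 0.05 or over. With poly(I:C) all 8 values are below 0, from -0.93 (Gbp9) to -10.85 (Gbp2b, which includes background readings). Untreated, Gbp7 lies at 2.60 and Gbp2b at -3.61, and the other 6 are open. These untreated values of Gbp7 and Gbp2b, and those of Gbp4 in both conditions, also include background readings.

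Whole-group counts moved with the arrays numbered 3. Without the third treated wild-type array, all 8 genes rose in wild type (7.72% of all genes) and all 8 were lower in treated ΔC than in treated wild-type cells (9.76%). Without all 4 arrays numbered 3 these counts were again 8 (13% of all genes) and 8 (16.9%). There were then 5 rises in ΔC cells (6.52%) and, between untreated genotypes, 2 genes higher (17.8%) and 2 lower (18.6%) in ΔC cells. The third treated wild-type array had read low for these same 8 genes, so leaving it out raises their treated wild-type means by construction. The higher counts obtained without that array are no separate support. Counts of genes whose groups did not overlap were 7 of 8 for the wild-type response (12% of all genes higher), 5 for the ΔC response (8.79%) and 4 lower for treated ΔC against treated wild type (18.9%). Slide 1 held a treated array of each genotype and an untreated ΔC array. On it ΔC minus wild type with poly(I:C) was -3.17 for Gbp2, -11.66 for Gbp2b, -1.47 for Gbp3, -1.28 for Gbp5 and -2.02 for Gbp7, and the ΔC rise was 6.76 for Gbp5, 5.35 for Gbp3 and 3.20 for Gbp2. On slide 2 the wild-type rise was 7.16 for Gbp2b, 7.66 for Gbp7, 6.62 for Gbp2 and 1.01 for Gbp9, and untreated ΔC minus wild type was 1.55 for Gbp7 and -3.92 for Gbp2b. With slide as a block, 3 genes rose in ΔC cells (0.544% of all genes) and 3 were lower in treated ΔC than in treated wild-type cells (2.05%).

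Upstream of the family, 4 of 12 interferon genes tested were called higher in ΔC cells (1.82% of all genes) and 11 of 12 in wild-type cells (5.24%). An unadjusted p under 0.05 was reached by 9 in the ΔC and 11 in the wild-type response. For the difference of the responses 0 of 12 were called, and 2 had an unadjusted p under 0.05, so the unequal counts do not show unequal responses. The list held 19, of which 15 had a probe, and 2 of the 12 passed the filter on dim probes only through treated arrays, which set their direction. Ifnb1 and Ifna4 led in both genotypes: in ΔC cells Ifnb1 rose by 12.11 ± 0.67 on the log2 scale and Ifna4 at least 71.1-fold, and in wild-type cells Ifnb1 rose at least 4930-fold and Ifna4 at least 280.5-fold. In treated cells 9 of the 12 were lower in ΔC than in wild-type cells, led by Ifna7 (-2.76 ± 0.60) and Ifna12 (-2.42 ± 0.60), while Ifnb1 differed by -1.17 (adjusted p = 0.251). Untreated, 0 of 12 differed by limma, and 0 of 12 had an unadjusted p under 0.05. The medians of the list were 2.19 in ΔC cells, 3.80 in wild type and -2.13 for treated ΔC against treated wild type. Many Ifna genes are near-identical, so their probes may share transcripts. The Ifna12 difference lost its call without treated wild-type array 1 (-1.97) or 2 (-1.96) or treated ΔC array 2 (-2.25).

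Of 16 genes of interferon receptors and JAK-STAT signalling, 3 rose in ΔC cells and 4 in wild-type cells, and the receptor and kinase genes were not among them. An unadjusted p under 0.05 was reached by 4 and 7 in these responses. For the difference of the responses 0 of 16 were called, and 5 had an unadjusted p under 0.05. Usp18, a brake on the type I receptor, rose by 4.80 ± 0.50 in ΔC cells and by 7.83 ± 0.50 in wild-type cells. Stat2 rose by 2.54 ± 0.46 in ΔC cells and by 4.31 ± 0.46 in wild-type cells. In treated cells 5 were lower in ΔC than in wild-type cells, led by Usp18 (-2.01 ± 0.50) and the signalling inhibitor Socs1 (-1.83 ± 0.34). Untreated, only Socs3 differed (-0.55 ± 0.17), and 0 of 16 were called there with median scaling or quantile normalization. Median scaling left 2 rises in ΔC cells. Calls were lost without 1 array for Stat2 in ΔC cells (5 arrays, every ΔC array but treated 3, at 2.26 to 2.67), for Usp18 between genotypes (treated wild-type 1, -1.80, or 2, -1.91) and for Socs3 untreated (8 arrays, at -0.65 to -0.44: untreated wild-type 1 and 2, treated wild-type 1 and 2, all untreated ΔC and treated ΔC 2).

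Among 13 regulatory factors and cofactors, 2 rose in ΔC cells, Irf9 (2.24 ± 0.21) and Irf1 (1.88 ± 0.31), both factors that act at ISRE letters. In wild-type cells 7 rose, led by Irf7 (5.92 ± 0.73) and Nlrc5 (5.18 ± 0.57). An unadjusted p under 0.05 was reached by 7 in the ΔC and 10 in the wild-type response. For the difference of the responses 0 of 13 were called, and 8 had an unadjusted p under 0.05. Untreated ΔC cells had more Irf8 (at least 48.0-fold, adjusted p = 0.00229) and Nlrc5 (3.04 ± 0.57) than untreated wild-type cells, and also more Irf5 (1.81 ± 0.44). Treated ΔC cells had less Batf2 (-4.29 ± 0.68), Irf1 (-1.52 ± 0.31) and Irf9 (-0.70 ± 0.21) than treated wild-type cells. With each array scaled to its median, 1 of the 13 rose in ΔC cells and 2 were lower in treated ΔC than in treated wild-type cells. The Irf1 rise in ΔC cells lost its call without untreated ΔC array 1 (1.89), treated ΔC array 1 (1.89) or 2 (1.87), the untreated Irf5 call without untreated wild-type 1 or 2 or untreated ΔC 2 (at 1.73 to 1.80), and the treated Irf9 call without any treated wild-type array, untreated ΔC 2 or treated ΔC 3 (at -0.72 to -0.45).

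Of the other interferon-induced GTPases, 3 of 7 measured rose in ΔC cells, 7 of 7 rose in wild-type cells and 7 of 7 were lower in treated ΔC than in treated wild-type cells. Their medians were 2.60, 4.17 and -3.00 in these comparisons. An unadjusted p under 0.05 was reached by 4 of the 7 in the ΔC response. For the difference of the responses 0 of 7 were called, and 7 had an unadjusted p under 0.05. Tgtp2, a GTPase that acts on parasite vacuoles, rose by 3.37 ± 0.67 in ΔC cells and by 7.36 ± 0.67 in wild-type cells. Irgm2, a regulator of those GTPases, rose by 3.27 ± 0.58 in ΔC cells and Igtp by 6.92 ± 0.60 in wild-type cells. Tgtp2 (-4.28 ± 0.67) and the very large GTPase gene Gvin1 (-3.98 ± 0.68) led the treated difference. Both ΔC rises were lost without 1 array, Tgtp2 for 8 arrays (at 3.06 to 3.54: all untreated wild-type, all untreated ΔC, treated ΔC 1 and 2) and Irgm2 for 4 (at 2.89 to 3.21: untreated ΔC 2 and 3, treated ΔC 1 and 2). Of 9 atlastins and dynamins, relatives in structure, 0 passed in either response by limma, and 1 in the ΔC and 2 in the wild-type response had an unadjusted p under 0.05 (medians -0.06 and -0.20). Atl1 was higher in untreated ΔC cells (1.18) and Atl2 in treated ones (0.45), both calls that median scaling took away. They were also lost without 1 array, Atl1 for 3 arrays (at 0.91 to 1.06: untreated wild-type 3, untreated ΔC 1 and 2) and Atl2 for 3 (at 0.40 to 0.46: treated wild-type 1, treated ΔC 1 and 2).

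Few genes of partner proteins passed the test after poly(I:C). Of 10 inflammasome genes 0 rose in ΔC cells by limma, where 1 had an unadjusted p under 0.05, and Casp4, which encodes the lipopolysaccharide sensor caspase-11, rose by 4.98 ± 0.75 in wild-type cells. In treated cells Casp1 (at least 7.94-fold), Naip2 (-3.29 ± 0.64) and Aim2 (at least 2.23-fold) were lower in ΔC than in wild-type cells, and untreated ΔC cells had more Gsdmd (1.48 ± 0.21), the pore protein of pyroptosis, and less Aim2 (at least 2.82-fold). Of the 10, 3 passed the filter on dim probes only through wild-type arrays, Aim2 among them, so that the filter set the direction of their genotype differences. Likewise 1 of the 10 passed only through treated arrays. Casp1 and Aim2 were well above background on no treated ΔC array, so a measured difference there could only be lower in ΔC cells. Of 10 genes of ATG8 conjugation, the machinery that places these GTPases at vacuoles, Gabarap fell in wild-type cells (-0.44 ± 0.12, a call lost without any single array except untreated wild-type 3 and treated ΔC 3, at -0.48 to -0.39) and 0 passed in ΔC cells by limma (0 with an unadjusted p under 0.05). Of the same 10, 4 were lower in untreated ΔC cells, led by Gabarap (-0.67 ± 0.12) and Atg12 (-0.64 ± 0.11), and in treated ΔC cells Atg12 (-0.69 ± 0.11) and Gabarap were lower and Atg7 higher (0.39 ± 0.11). Of 6 prenylation enzymes, Rce1 was called, higher in ΔC cells both with poly(I:C) (0.49 ± 0.11) and untreated (0.41 ± 0.11). Scaling each array to its median took away the 4 untreated ATG8 calls, both Gabarap calls made with treated arrays, the treated Atg7 call and both Rce1 calls. The Aim2 calls were lost without 1 array, untreated for 3 arrays (fitted -2.86 to -3.62: untreated wild-type 2, untreated ΔC 1 and 2) and treated for 8 (fitted -2.27 to -3.34), as was Rce1 untreated for 4 (at 0.34 to 0.42: arrays 1 and 2 of both untreated groups).

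Likeness of pattern was measured over the 12 arrays as the root mean square difference of centred log2 levels. The candidates were 14153 named genes outside the family that were well above background on some array of every group. The mean of the 8 genes was closest to Mndal (0.48), Parp14 (0.52), Tmem140 (0.53), Helz2 (0.54) and Ifi211 (0.55). Gene by gene, Gbp9 was closest to Sptlc2 (0.11), Gbp2 to Parp14 (0.29), Gbp4 to Zbp1 (0.34), Gbp6 to Ifnab (0.41) and Gbp3 to Usp18 (0.43). Gbp5 was closest to Ifit1 (0.62) and Gbp7 to Cd274 (0.72). For Gbp2b the nearest candidate lay at 2.26, Phf11d, which rose by 3.13 in ΔC cells. Genes dim on every array of a group were not candidates, so the search could not return a gene undetected in ΔC cells as Gbp2b was. Within the family Gbp3 and Gbp5 were 0.62 apart, Gbp7 and Gbp3 0.79, and Gbp2 and Gbp3 0.95. These distances describe the arrays, which share groups and the third arrays, and carry no test.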

How the data were processed

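Per the labels' protocols, lysis was with NP40, the spun supernatant gave the RNA, and 200 ng of it was amplified with Cy3 label. Per the file headers, Feature Extraction 10.7.3.1 wrote a processed intensity for every spot, background-subtracted and not normalized across arrays, as well as median spot and background intensities and a flag for spots well above background. A log2 table deposited by the authors, made with limma per the submitters' processing notes, has a median of 5.28 in each column. Its column for the first treated ΔC sample correlated at 0.949 with that sample's array and at 0.974 with untreated wild-type 1 (other columns at least 0.999 with their own), so the table served as an alternative, with and without that column.

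Control and outlier spots were left out, as were 107 probes with no usable spot on an array. Of 55681 probes, 27235 were named by RefSeq accession. Genes were tested if some group had a probe well above background on each of its 3 arrays, and the brightest such probe stood for the gene. limma 3.58.1 (R 4.3.3) fitted 4 group means over the 12 arrays (8 residual and 2.19 prior degrees of freedom, two-sided, Benjamini-Hochberg over 15445 genes), after the script had been tested on simulated data. For bounds, a dim group took, on each array, the lowest signal of any probe well above background where its own was lower. A dim probe can read above that signal, so such a bound is not a strict minimum. The number of arrays limits precision. Deviations from group means correlated at 0.115 to 0.651 between same-numbered arrays, which was checked before calls were compared, so the numbers were taken to pair the samples, as the 3 experiments of the labels would. Arrays of different numbers were not compared in this way, and a shift shared by the arrays numbered 3 can by itself raise all of these correlations. They therefore do not show that the arrays numbered 1 or 2 pair. The main fit left pairing by number out, and it entered only as the replicate block among the alternatives. Alternatives covered scaling, background correction (normexp, offset 50, on the median spot intensity), the filter, probes, array weights, slide, scan day, pairing, the authors' table and left-out arrays. Members, lists and tests were chosen with earlier results of these data known. By rule the text names the 8 genes, Ppp1r15a, the 2 largest called rises and falls of each list and the genes of closest pattern. Irf5, Irf9 in treated cells, Aim2, Atg7, the markers of other cell types, Vim, Gbp8 and Gbp10 were added after their values were seen. Probe sequences were not used here, so whether a probe also reads a near-identical relative was not tested.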

Additional observations from a re-analysis of the deposited data

Results flagged for a closer look

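The fitted response of Gbp2b to poly(I:C) differed between the genotypes by -7.24 ± 0.89 on the log2 scale (ΔC response minus wild-type response, limma adjusted p = 0.0483), a difference tested by the interaction of genotype and treatment. In ΔC cells 0 of 6 arrays were well above background, and in wild-type cells 6 of 6 were, so the size includes background readings. The ΔC change in it (-0.36) lies between background readings, so the value mostly restates the wild-type rise (6.88) with its sign turned. The gene also passed the filter on dim probes only through wild-type arrays. The test therefore does not measure a response of Gbp2b in ΔC cells. The second probe gave -7.29 (0.0427 over 35200 probes) and the first -7.24 in that same fit (0.0552). Over 26 alternatives the call held in 10, with adjusted p of 0.000384 to 0.35 and values of -7.98 to -5.68.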

How the results depend on the processing

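The 7 wild-type rises kept their call in all 27 alternatives run for each of them; the other counts did not keep theirs. Of the 8 genes, those called in the ΔC response were 5, and 3 with median scaling, without the filter, or with either slide or scan day blocked, 0 in the authors' table and 2 in it without the mismatched column. Of all 15445 genes, 207 were called higher in that response with median scaling and 0.544% with slide as a block. Those called between untreated genotypes were 2, and 0 with normexp or in the authors' table. With slide as a block 1 was called, higher in ΔC cells (3.55% of all genes). Without all 4 arrays numbered 3 there were 4, of which 2 were higher (17.8%) and 2 lower (18.6%). Those called between treated genotypes were 6, and 3 with only the groups compared, with slide as a block (2.05% of all genes called lower) or in the authors' table. For the difference of the responses 1 was called, and 0 without the filter, with every probe tested on its own, with either slide or scan day blocked or in the authors' table with or without that column. Array weights gave 6, a setting that called 6745 of all genes in another comparison, the wild-type response. For the difference of the responses, no alternative called more than 694 of the 15445 genes, counting either direction. Leaving out all arrays numbered 3 gave 5, against 2.33% of all genes called lower. Leaving out each array in turn gave 7 to 8 in the wild-type response, 2 to 5 in the ΔC response, 1 to 2 between untreated and 3 to 8 between treated genotypes, and 0 to 5 for the difference. The replicate block gave 7, 5, 2, 7 and 1 in the same order, and it changed no call on the 8 genes besides that on Gbp3 between treated genotypes. Shares over all genes moved with the array left out. Without treated wild-type array 3, 7.72% were called higher in the wild-type response (5.24% with it) and 1.29% lower for the difference (0.0129% with it). Between untreated genotypes 10.9% of all genes were called higher and 10.2% lower in the main fit, so 1 to 2 of 8 is not set apart from all genes. Fitted log2 differences in place of bounds were -3.61 against -2.59 (Gbp2b, untreated genotypes), -10.85 against -9.45 (Gbp2b, treated), 5.24 against 3.02 (Gbp4, wild-type response) and -5.21 against -3.17 (Gbp4, treated genotypes). Signs turned for uncalled values alone: Gbp9 in the ΔC response to -0.0433 with median scaling; Gbp2b there to 0.0229 with normexp, 0.55 in the authors' table and 0.0172 without treated ΔC array 2 (-0.794 to 0.0172 over all arrays left out singly); Gbp4 there to -0.0773 with slide and -0.0668 with scan day blocked; Gbp4 between untreated genotypes to 0.0221 with quantile normalization, 0.0218 in both forms of the authors' table, 0.0912 with slide and 0.10 with scan day; and Gbp5 between untreated genotypes to -0.12 with normexp, -0.0768 with slide, -0.0633 with scan day and -0.17 without untreated wild-type array 1 (-0.17 to 0.459 over all). Over all genes, 1046 were called in the wild-type response (232 with slide as a block to 6745 with array weights), 284 in the ΔC response (0 in the authors' table to 2670), 3267 between untreated genotypes (923 with slide to 7408), 3233 between treated genotypes (556 in the authors' table to 6931) and 3 for the difference (0 to 694). Median scaling moved the share of higher calls in the wild-type response to 97.7%, against 77.3%, between untreated genotypes to 64.5%, against 51.6%, and between treated ones to 45.9%, against 56.8%, and put the all-gene median at -0.19, against -0.05, in the ΔC response, at -0.14, against 0.01, between treated genotypes and at -0.14, against 0.07, for the difference of the responses. The causes were not tested. Signals near background limit Gbp2b in ΔC cells, Gbp4 and untreated Gbp7.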
